A study of Mus musculus with 2 samples.

Results

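Histone genes of 2 kinds, those expressed for DNA replication and those that encode histone variants, were compared between 2 cultures of M210B4, a stromal cell line from mouse bone marrow. Of 22180 genes with a probe set of their own on the arrays, 35 had a histone symbol of the families considered (H1f, H2ac, H2bc, H2ax, H2aj, H2az, H3c, H3f, H4c, Macroh2a1 and Macroh2a2). They were chosen by symbol alone, 26 as replication-dependent and 9 as variant. Of 82 mouse genes with such symbols in RefSeq, 40 others had only probe sets shared with further genes and 7, the variant H1f0 among them, had none that names them. The anti-CD84 culture received an antibody that activates the surface receptor CD84, and the control culture received an IgG1 isotype antibody. In both, M210B4 cells were kept for 24 h in RPMI medium with 2% FCS, at 37 °C and 5% CO2, and 200 ng of total RNA was labelled for 1 Affymetrix Mouse Gene 2.0 ST array. With 1 array per condition no result has a replicate check, a standard error or a p-value, and the number of arrays limits the precision.

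Replication-dependent histones package newly made DNA. Their genes lie in clusters, mostly without introns, and are transcribed in S phase, and their mRNAs end in a stem-loop bound by Slbp in place of a poly(A) tail. Variant histones are mostly made from polyadenylated mRNAs and throughout the cell cycle, and replace the standard histones at particular sites. Because many cluster members are nearly identical, probes can share signal among them, and the values of such genes are uncertain for that reason. In a culture, fewer cells in S phase and less histone mRNA per cell cannot be told apart.

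The arrays held 41345 probe sets with median log2 values of 4.87 (anti-CD84) and 4.88 (IgG1). A gene counted as detected when above 4.84 on at least 1 array, the 95th percentile of 1394 olfactory and vomeronasal receptor genes, and 13284 genes did. Differences are anti-CD84 minus IgG1 on the log2 scale. Of the marrow stromal markers, 14 of 17 measured were detected, with Col1a1 at 12.52 and 12.53, whereas Eng, Nt5e and Lepr were below the detection level on both arrays. Haematopoietic markers were detected in 5 of 17, none above 6.21, with Ptprc at 3.90 and 3.86, and endothelial markers in 4 of 10, none above 6.09. Past 1.5-fold by measured values were 3 stromal markers (Cxcl12, Pdgfra and Foxc1, higher), 1 haematopoietic (Csf1r, higher) and 2 endothelial (Cdh5 and Pecam1, lower). Of all detected genes 10.7% were 1.5-fold higher and 6.4% lower. Csf1r, Cdh5 and Pecam1 each had 1 array below the detection level, with bounds of 1.01-fold, 1.65-fold and 1.11-fold, and the part of other cells in the histone values was not tested.

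The histone genes did not move one way. By their measured values, of 16 detected replication-dependent genes 2 were at least 1.5-fold higher after anti-CD84 and 3 at least 1.5-fold lower, and of 8 detected variant genes 1 was higher and 2 lower. Of these, H2bc14 (higher) and Macroh2a2 (lower) passed detection only through their brighter array and, with the dimmer value set at the detection level, are bounded at 1.02-fold and 1.36-fold. Neither is therefore shown to pass 1.5-fold, and the counts without them were 1 higher and 3 lower, and 1 higher and 1 lower. Among all detected genes 10.7% were 1.5-fold higher and 6.4% lower, as background to the counts by measured values. The counts without H2bc14 and Macroh2a2 compare instead with the genes that had no value below the detection level. Of these 11761 genes, 1125 were 1.5-fold higher and 457 lower. H1f2 and H2bc14 were the higher replication-dependent genes, H2ac1, H2bc3 and H2bc18 the lower ones. Among the variants H2aj was higher, and H2az1 and Macroh2a2 were lower. By its measured difference of -1.55, Macroh2a2 alone among them passed 2-fold, as 1.43% of detected genes did in that direction and 3.41% in either.

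Most of the other differences were small and below 0. The difference was below 0 for 12 of 16 replication-dependent and 5 of 8 variant genes, against 40.9% of all detected genes. The median difference was -0.08 for the replication-dependent genes and -0.30 for the variants, beside 0.09 for all detected genes. The medians differed by 0.22 between the classes. With only genes above the detection level on both arrays they were -0.10 over 15 genes and -0.06 over 6, so the order of the classes turned. Each difference is that of a single pair of arrays, and differences of all detected genes had a standard deviation of 0.44. At a mean level of 6 or more, 2 of 17 histone genes were higher and 2 lower, beside 10.1% and 3.16% of genes at those levels. Below 6, where 12.2% of genes were higher and 13.3% lower, 1 of 7 was higher (H2bc14) and 3 lower (Macroh2a2 among them), again by measured values. The spread was 0.62 for genes with a mean level up to 5, H2bc14 and Macroh2a2 among them. It was 0.49 between 5 and 6 and 0.35 between 8 and 9. With the differences centred on their median over all detected genes, 7.71% of those genes were 1.5-fold higher and 8.49% lower, and the higher share of the genes past 1.5-fold went from 62.7% to 47.6%. H1f2 was then within 1.5-fold, as it also was under a loess curve and quantile normalization.

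**Figure D1:**
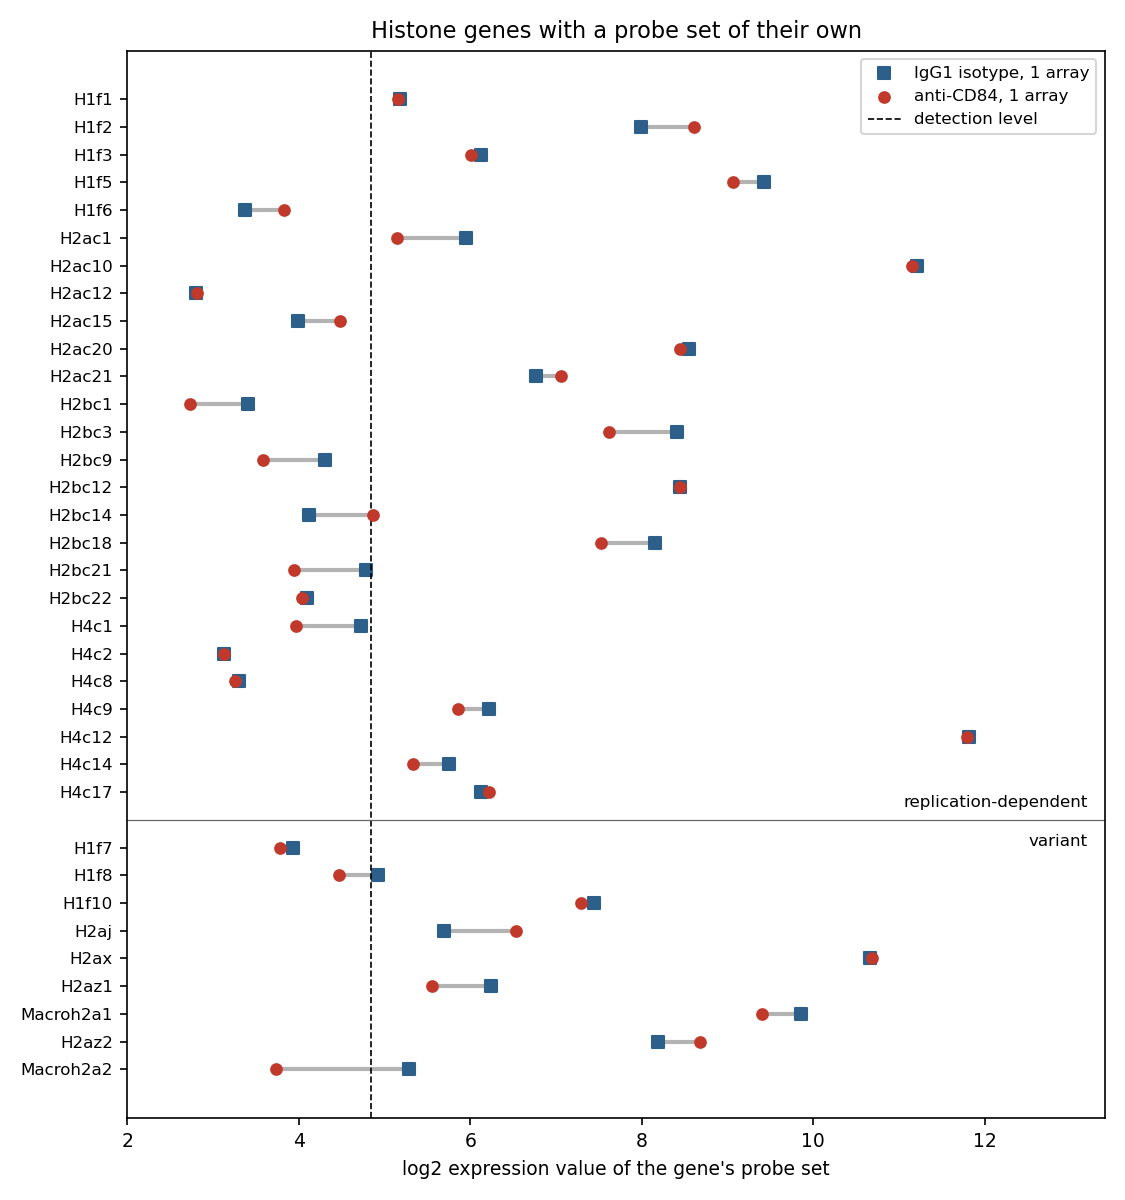
Log2 expression values (horizontal axis) of the 35 histone genes on the anti-CD84 array (red circles) and the IgG1 array (blue squares), 1 array each and so without error bars, with the detection level of 4.84 as a dashed line. The genes above the thin line are replication-dependent and those below it are variants; H2bc3 lies at 7.61 and 8.41, and H2bc12 at 8.44 and 8.45.

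**Figure D2:**
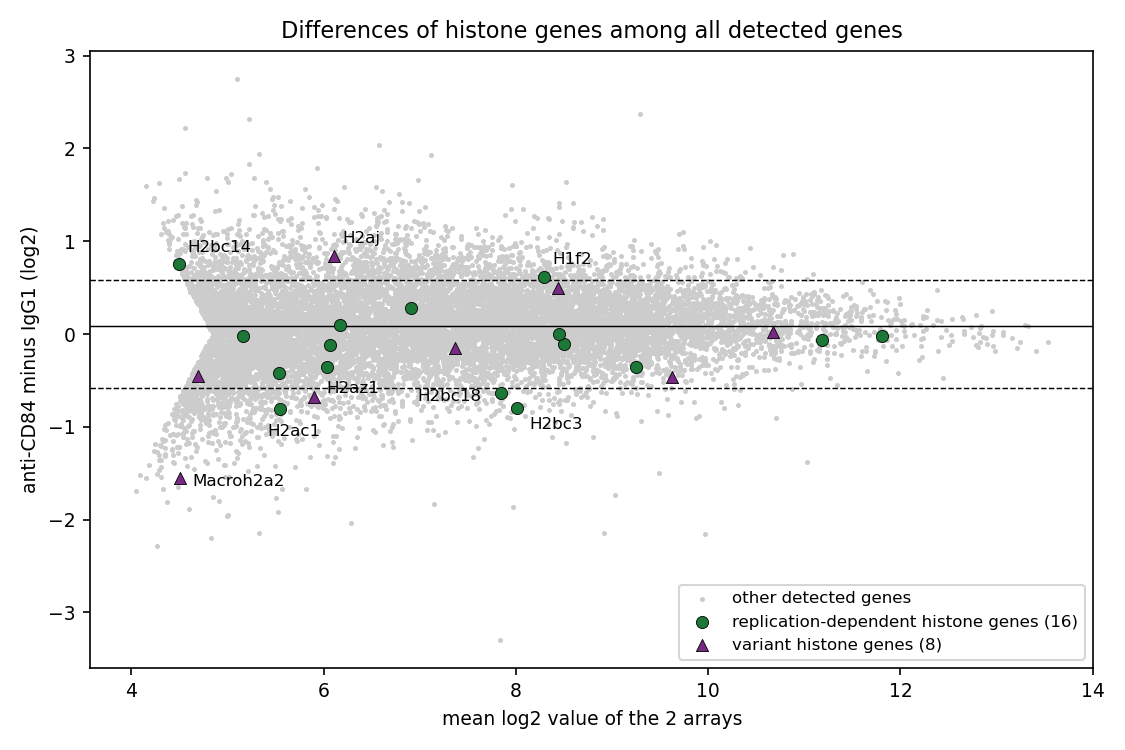
Difference between the arrays (log2, vertical axis) against the mean log2 level (horizontal axis) for all 13284 detected genes, with 16 replication-dependent histone genes as green circles and 8 variants as purple triangles. Dashed lines mark 1.5-fold and the solid line the median of all detected genes, 0.09; the 8 named genes lie past 1.5-fold by measured values, H2bc14 and Macroh2a2 with 1 value below the detection level.

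The sequences before the start of 8 genes are given below with short motifs marked. They are the genes past 1.5-fold that were measured on both arrays, together with H2bc12 and H4c12, whose values barely differed. Each is the 150 bases before the RefSeq start (GRCm38.p6), written 5′ to 3′ on the gene's strand. Capitals mark matches on either strand to 3 motifs. The octamer, bound by POU-domain factors such as Oct-1, was searched as ATTTGCAT. The box that positions the polymerase near the start was searched as TATAAA. Only these exact letters were marked, so similar forms stay unmarked. Matches counted at any position, also those that begin 10 (H2bc3) or 16 (H4c12) bases before the start. The box that the factor NF-Y binds was searched as CCAAT. No matches of different motifs overlapped in the members' windows.
H2ac1 (chr13:23934287-23934436, plus strand): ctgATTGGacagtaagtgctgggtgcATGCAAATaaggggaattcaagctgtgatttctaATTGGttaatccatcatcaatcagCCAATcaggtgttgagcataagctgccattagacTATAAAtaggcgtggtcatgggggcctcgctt
H2bc3 (chr13:23746584-23746733, plus strand): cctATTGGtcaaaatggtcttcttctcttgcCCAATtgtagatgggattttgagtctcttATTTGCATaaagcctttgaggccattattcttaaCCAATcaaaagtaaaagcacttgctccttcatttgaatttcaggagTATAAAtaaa
H2bc18 (chr3:96269550-96269699, plus strand): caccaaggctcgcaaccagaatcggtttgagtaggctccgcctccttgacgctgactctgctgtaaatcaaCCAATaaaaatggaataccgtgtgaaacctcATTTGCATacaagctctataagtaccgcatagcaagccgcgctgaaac
H2bc12 (chr13:22035671-22035820, plus strand): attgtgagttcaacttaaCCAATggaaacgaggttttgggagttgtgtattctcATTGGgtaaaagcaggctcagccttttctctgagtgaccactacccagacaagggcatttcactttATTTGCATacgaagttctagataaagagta
H1f2 (chr13:23738657-23738806, plus strand): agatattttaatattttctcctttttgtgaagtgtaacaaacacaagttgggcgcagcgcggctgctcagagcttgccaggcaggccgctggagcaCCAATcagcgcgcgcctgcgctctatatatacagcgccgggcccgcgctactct
H4c12 (chr13:21750554-21750703, minus strand): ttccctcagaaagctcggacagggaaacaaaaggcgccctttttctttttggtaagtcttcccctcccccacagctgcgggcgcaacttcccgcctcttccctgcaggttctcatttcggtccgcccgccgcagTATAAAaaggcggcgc
H2aj (chr6:136808098-136808247, plus strand): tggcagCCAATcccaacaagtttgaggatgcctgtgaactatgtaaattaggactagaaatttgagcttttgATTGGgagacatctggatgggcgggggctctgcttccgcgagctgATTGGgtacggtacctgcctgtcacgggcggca
H2az1 (chr3:137864337-137864486, plus strand): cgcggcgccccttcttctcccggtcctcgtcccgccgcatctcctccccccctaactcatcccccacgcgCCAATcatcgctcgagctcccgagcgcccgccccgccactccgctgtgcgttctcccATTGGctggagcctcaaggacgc

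Lower and nearly equal values occurred with the same motifs. Windows of H2ac1, H2bc3 and H2bc18, all lower, hold the octamer, and so does that of H2bc12, at 8.44 after anti-CD84 and 8.45 after IgG1. Of 15 detected replication-dependent genes with a window, 5 hold the octamer, of which 3 were 1.5-fold lower and 1, H2bc14, higher. The other 10 lack it, of which 0 were lower and 1, H1f2, higher, beside 6.4% lower and 10.7% higher among all detected genes. This tally was made after the values were seen, and a link of the octamer with the differences was not tested. H2ac1, among the lower ones, had a mean level under 6, where 13.3% of detected genes were lower. The higher call of H2bc14 rests on an IgG1 value below the detection level. All 5 with the octamer are H2A or H2B genes, and H2ac1 is the only H2A gene among them. The 3 detected H2A genes that lack the octamer, H2ac10, H2ac20 and H2ac21, lay within 1.5-fold. Of the detected H2B genes none lacks it, so no comparison within H2B is possible. Over all genes of these symbols in the RefSeq table the octamer was found in 16.9% of 59 replication-dependent windows, from H2A and H2B genes only, and in 0.998% of all 32851 windows. Of 13 variant windows 1, of an H3f gene, holds it. TATAAA was found in 39.0% of the replication-dependent windows, in 1 of 13 variant windows and in 7.57% of all. CCAAT was found in 83.1%, 53.8% and 24.5% respectively. It was in all H1, H2A and H2B windows of the replication-dependent class but in 27.3% of the H4 windows. A match is a description of letters and says nothing of binding.

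Linker histones, which bind the DNA between nucleosomes, had 4 of 5 replication-dependent genes detected. H1f2 (H1.2) was at 8.60 after anti-CD84 and 7.99 after IgG1. That makes it 1.53-fold higher, and it was the only 1 of the 4 with a difference above 0. H1f5 (H1.5) was at 9.07 and 9.42, or 1.28-fold lower. H1f3 (H1.3) lay at 6.003 and 6.12, 1.09-fold lower, and H1f1 (H1.1) at 5.15 and 5.18, 1.02-fold lower. H1f6, the testis linker histone, did not reach the detection level, at 3.83 and 3.37. H1f4 has only a probe set shared with 3 H2B genes, which was at 6.35 and 5.64.

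Core histone H2A genes had 4 of 6 detected. H2ac1 encodes a testis H2A, and was at 5.14 after anti-CD84 and 5.95 after IgG1. It was 1.75-fold lower, at levels not far above the detection level. H2ac10 was at 11.15 and 11.21, and H2ac20 at 8.45 and 8.55, or 1.04-fold and 1.07-fold lower. H2ac21 was at 7.06 and 6.77, 1.22-fold higher. Its dimmer probe set, which did not reach the detection level, was at 3.80 and 4.13, a difference of the other sign. H2ac12 (2.81 and 2.80) and H2ac15 (4.48 and 3.99) were below the detection level on both arrays.

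Histone H2B genes had 4 of 8 detected, 2 of them past 1.5-fold on values above the detection level on both arrays. H2bc3 was at 7.61 after anti-CD84 and 8.41 after IgG1, which is 1.73-fold lower. H2bc18 was at 7.53 and 8.16, or 1.55-fold lower. H2bc12, at 8.44 and 8.45, differed by -0.00. H2bc14 was at 4.87 and, below the detection level, 4.12, so that it was at least 1.02-fold higher although its measured difference was 0.75. Such a bound sets the dimmer value at the detection level and takes the brighter one as measured. The other 4, H2bc1, H2bc9, H2bc21 and H2bc22, were below the detection level on both arrays, with values from 2.73 (H2bc1) to 4.78 (H2bc21).

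Histone H4 genes had 4 of 7 detected, and these 4 all stayed within 1.5-fold. H4c14 was at 5.33 after anti-CD84 and 5.75 after IgG1, or 1.34-fold lower, and H4c9 was at 5.86 and 6.21, or 1.28-fold lower. H4c12, at 11.80 and 11.82, and H4c17, at 6.22 and 6.12, differed by 1.02-fold and 1.07-fold. H4c1, H4c2 and H4c8 did not reach the detection level on either array, with values from 3.13 (H4c2) to 4.73 (H4c1). H4 genes have closely similar coding parts, so signal from other H4 genes may be included in any of these values.

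Of the variants, H2A forms had the widest range. Macroh2a2, a macroH2A with a large non-histone domain found on silent chromatin, was at 3.73 after anti-CD84 and 5.28 after IgG1. The first value is below the detection level, so it was at least 1.36-fold lower. Macroh2a1, which encodes the related protein, was at 9.40 and 9.86, 1.38-fold lower and within 1.5-fold. Both macroH2A genes were thus lower on the anti-CD84 array.

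The H2A.Z genes, whose product marks promoters and is placed by the SRCAP and EP400 complexes, had differences of opposite sign. H2az1 was at 5.56 after anti-CD84 and 6.24 after IgG1, or 1.61-fold lower. Its mean level was under 6, where 13.3% of detected genes were lower. H2az2 was at 8.68 and 8.19, or 1.41-fold higher and within 1.5-fold. H2aj, which encodes the H2A.J variant, was at 6.53 and 5.69, 1.79-fold higher and the highest difference of all 24 detected members. H2ax, whose product is phosphorylated at DNA breaks, was at 10.68 and 10.66, a difference of 0.03 whose sign turned under the other scalings.

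Of the variant linker histones only H1f10 was above the detection level on both arrays. H1f10 (H1.10) was at 7.29 after anti-CD84 and 7.44 after IgG1, 1.11-fold lower. H1f8, the oocyte linker histone, was at 4.47 and 4.92, at least 1.06-fold lower, and H1f7, the spermatid form, reached it on neither array (3.78 and 3.93).

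Histone H3 could be read only from shared probe sets, since no H3 gene had one of its own. In all, 45 probe sets listed at least 1 of these histone genes together with others. Because 3 pairs of them carried identical values, they count as 42 measurements, of which 27 were detected. The 8 probe sets listing H3c2, H3c3, H3c4, H3c6, H3c7, H3c13, H3c14 and H3c15 had 4 detected, with differences from -0.34 to 0.61 (the highest with IgG1 below the detection level), and the brightest was at 8.27 and 8.12. The 4 probe sets listing H3c1, H3c8, H3c10 and H3c11 had 1 detected, at 5.61 and 4.89. Probe sets listing H3f3a, the source with H3f3b of the replacement histone H3.3, were all detected, and the 7 had differences from -0.31 to 0.45 with a median of 0.14. The brightest pair of these lay at 11.54 and 11.69 and at 11.68 and 11.51 and differed in sign, although both list the same 5 symbols.

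Shared probe sets lay higher than the genes with a probe set of their own. Over 20 detected shared measurements of replication-dependent genes the median difference was 0.18, with 4 at least 1.5-fold higher and 1 lower, against -0.08 over the 16 genes and beside 10.7% higher and 6.4% lower among all detected genes. Of the 4, 1 had its IgG1 value below the detection level. All were dim: the brightest of the 4 was at 6.89 and 6.29, and the lower one at 5.11 and 5.72. With the shared probe sets that list only genes of these symbols added to the 16, the class median was -0.0046. With all shared ones, an alternative added after the data were seen, it was 0.018. Shared H2A probe sets included 4 detected ones that list the same 10 genes, with differences from -0.60 to 0.60. At their bright end, 11.87 and 12.08 on the arrays, the difference was -0.21, and the next brightest, at 10.19 and 10.34, differed by -0.15. Other bright shared H2A measurements had the other sign. The one listing H2ac18, H2ac19 and H2ac20 was at 12.53 and 12.22, a difference of 0.30, whereas H2ac20 differed by -0.10 on its own probe set. The one listing 12 H2A genes was at 11.996 and 11.92, a difference of 0.08. For H2B, the brightest shared probe set, listing 12 symbols, was at 12.03 and 11.99, and all 6 detected H2B ones lay between -0.00 and 0.37. Which of the listed genes give the signal was not tested.

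**Figure D3:**
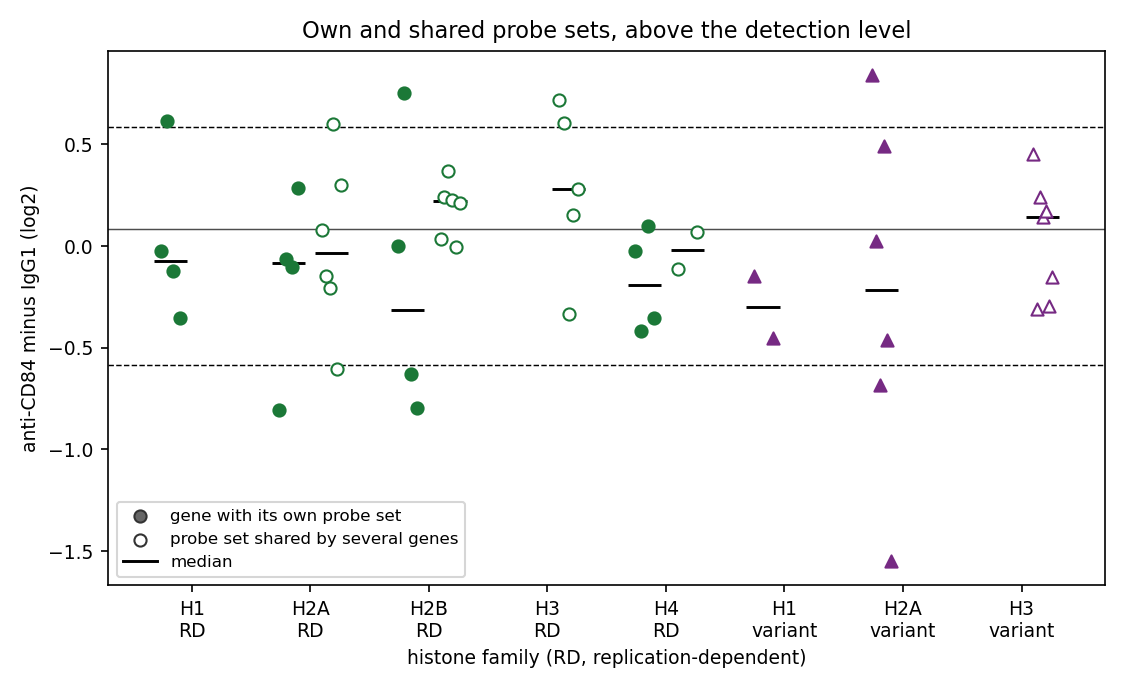
Difference between the arrays (log2, vertical axis) by histone family (horizontal axis), for detected genes with a probe set of their own (filled symbols) and for detected probe sets shared by several genes (open symbols, identical values drawn once). Circles are replication-dependent genes, triangles variants, black bars medians, dashed lines 1.5-fold and the grey line the median of all detected genes; the set that lists H1f4 with 3 H2B genes is left out. Shared H2B sets lie between -0.00 and 0.37, while H2B genes with their own spread from -0.79 to 0.75, the latter being H2bc14, whose IgG1 value is below the detection level.

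Differences were also set out by position in the clusters, and a link with position was not tested. In the RefSeq gene table the replication-dependent genes fall into 4 runs in which at most 10 other entries lie between neighbours. The largest run, from H4c8 to H2ac1, holds 32 histone genes, and its 6 detected members spread from -0.81 (H2ac1) to 0.62 (H1f2). The run from H2bc13 to H2ac24 had 4 detected members, H2bc14 included, with a median of 0.04, the short run from H2ac12 to H2bc11 had 2, at -0.00 (H2bc12) and -0.35 (H4c9), and the run from H2ac21 to H2bc18 had 4 with a median of -0.26. In that last run 3 of 4 differences were below 0, with H2bc18 the lowest and H2ac21 the highest. With 2 to 6 detected genes per run, whether higher and lower genes separate by position could not be read.

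H2A and H2B genes often sit head to head over a short gap. RefSeq gives 14 such neighbours, of which 9 point away from each other, 1 does not, and 4 lack a strand for 1 gene. Of the 3 with a probe set for each gene, H2ac1 and H2bc1, 280 bases apart, were both lower after anti-CD84 (-0.81 and -0.67), but H2bc1 reached the detection level on neither. H2ac12 and H2bc12, 177 bases apart, had differences of 0.01 and -0.00, with H2ac12 below the detection level. H2ac20 differed by -0.10 while its neighbour H2bc21, below the detection level on both arrays, differed by -0.84. No pair had each gene above the detection level, so coordinated levels could not be read. Of the 26 replication-dependent genes 24 span under 1000 bases, with a median of 492 over all 26, and the exceptions are H2bc21 (2667) and H2bc22 (14079), both among the 10 not detected.

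Genes that make and clear histone mRNA had a median difference near that of all detected genes, 0.09. Of 28 detected genes for histone mRNA transcription, 3' end processing and decay, 0 were 1.5-fold higher and 2 lower, with a median of 0.08, beside 10.7% higher and 6.4% lower among all detected genes. Snrpe, an Sm protein of spliceosomal and U7 particles, was at 7.04 after anti-CD84 and 7.98 after IgG1, or 1.92-fold lower. Mblac1, a nuclease of histone pre-mRNA, was at 5.19 and 5.84, or 1.58-fold lower. Named after their values were seen, Slbp, the stem-loop binding protein, was at 8.60 and 9.16 (1.48-fold lower), and Npat, the activator of histone gene transcription, at 8.49 and 8.01 (1.39-fold higher). Npat lay within 1.5-fold under all 4 scalings. Slbp did so only in the values as deposited: its difference was -0.56 there, -0.65 when centred, -0.66 with the loess curve removed and -0.65 after quantile normalization, past 1.5-fold in the last 3.

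Histone chaperones carry histones to new DNA or exchange variants. Of 20 detected chaperones of replication 1 was 1.5-fold lower and 0 higher (median 0.12), beside 6.4% and 10.7% of all detected genes. It was Chaf1a, the large subunit of the assembly factor CAF-1, at 7.28 and 7.95, or 1.59-fold lower. Of 19 detected genes for placing or removing variants 1 was higher and 2 lower (median 0.17), beside the same shares of 10.7% and 6.4%, and 3 were lower under each of the 3 other scalings, with Yeats4 added. Znhit1, a subunit of the SRCAP complex that places H2A.Z, was at 7.21 and 8.02, or 1.76-fold lower, and Actr6, of the same complex, was at 6.47 and 7.06, or 1.504-fold lower. Mis18a, needed to load CENP-A at centromeres, was at 8.18 and 7.47, or 1.63-fold higher. Cenpa itself, a centromeric histone gene outside the symbols considered and looked up after the values were seen, was at 8.78 and 8.65.

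S phase genes differed in both directions. Of 45 detected S phase and replication genes 2 were higher and 2 lower, with a median of 0.01, beside 10.7% higher and 6.4% lower among all detected genes. The median was -0.07 when centred, and 1 gene was then higher and 3 lower, without Cdk2 and with Slbp. Gins3, of the replicative helicase, was at 7.69 and 6.59, or 2.14-fold higher, and Cdk2, the S phase kinase, at 8.94 and 8.33, or 1.53-fold higher but within 1.5-fold under the other scalings (0.53 when centred). Tipin, of the fork protection complex, was at 7.70 and 8.47, or 1.70-fold lower, and Orc6, of the origin recognition complex, at 8.07 and 8.82, or 1.69-fold lower. Of histone genes outside the symbols considered, 4 of 7 measured were detected and 0 passed 1.5-fold. H2al2a, a testis variant, was at 5.31 and 5.86, and its difference of -0.55 became -0.64 when centred, past 1.5-fold. H2aw was at 5.36 and 4.89.

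**Figure D4:**
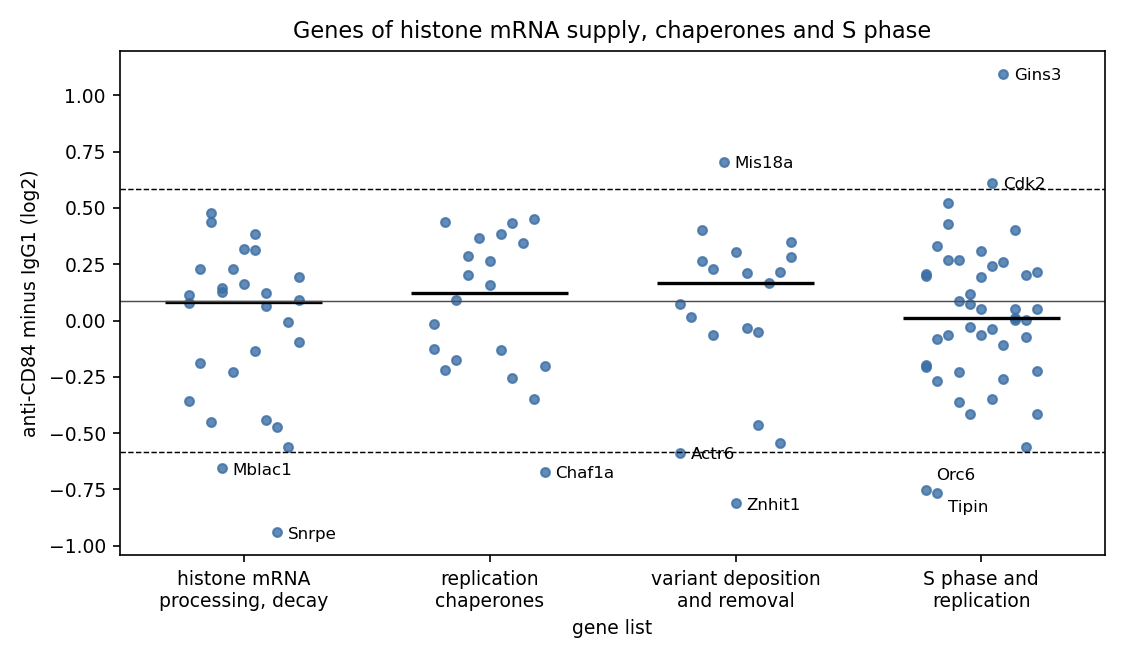
Difference between the arrays (log2, vertical axis) for detected genes of 4 lists (horizontal axis); each point is 1 gene, black bars are medians, dashed lines 1.5-fold and the grey line the median of all detected genes. The medians lie at 0.08, 0.12, 0.17 and 0.01 from left to right, and the 10 named genes lie past 1.5-fold.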

How the data were processed

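The authors deposited 1 log2 value for each probe set on each array; RMA and Partek are named in the submitters' processing notes without versions or settings. The log2 scale was inferred from the values. RMA can shrink the differences of dim probe sets, so their folds can be understated. The spread of differences was nevertheless widest among dim genes here. Of 41345 probe sets 23521 have 1 gene symbol in the platform annotation and 1814 several. Genes were represented by their brightest single-symbol probe set. All 35 histone genes matched a RefSeq gene (GRCm38.p6) by gene ID, and 32 a promoter window. Members and gene lists were chosen with earlier results of these data known. All variants, all H1 genes, and the 3 highest and 3 lowest detected genes of each other family, with any past 1.5-fold, were named, and up to 4 genes past 1.5-fold per list. No test was possible with 1 array per group. The counting code was tested on simulated data with large planted differences and less noise than these data. That checks the code and not how certain the 1.5-fold calls are. Alternatives were other scalings, level filters, probe set rules and a detection floor. Scalings used limma 3.58.1 in R 4.3.3; the rest ran in Python 3.11.15 with pandas 2.3.3 and numpy 2.4.6, and plots in matplotlib 3.10.9. Protein sequences were not analysed here.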

Additional observations from a re-analysis of the deposited data

How the results depend on the processing

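No paired analysis was possible because each condition has 1 array, and for the same reason no replicate could be left out. Causes of the changes below were not tested, beyond the fewer genes that a filter leaves. Under centring, a loess curve or quantile normalization the number of replication-dependent genes 1.5-fold higher became 1, and 7 of the 8 genes past 1.5-fold stayed so, all but H1f2. It was also 1 with both arrays above the detection level, with values floored there, and above the 75th percentile of all values (6.88), and 6 with shared probe sets added, both with those of members only and with all (the latter added after seeing the data). The replication-dependent median turned to 0.018 in the last case. Without a level filter 7 of 26 replication-dependent genes were lower, the variant median was -0.15 and the classes differed by 0.10. The lower genes added there, H2bc1, H2bc9, H2bc21 and H4c1, were below the detection level on both arrays. The share of lower genes among all 22180 genes without a filter was not counted. Above the 75th percentile the variant median was -0.061, 0 variants were higher and 0 lower, and the difference of medians turned to -0.00077. With both arrays above the detection level the variant median was -0.061, 1 variant was lower and the difference turned to -0.042. Floored values gave -0.11, 1 variant lower and a difference of 0.032. With all shared probe sets the variant median was -0.15. List counts under the other scalings were also added after seeing the data: Slbp and Yeats4 then passed 1.5-fold (lower) and Cdk2 no longer did, under all 3, and H2al2a passed when centred or quantile normalized. The mean of all probe sets and the clustered genes without germline members left every class median and count within the limits of 0.1 (log2) and 1.5 times. Without germline members, H2ac1 among them, 2 of 15 replication-dependent genes were higher and 2 lower, beside 10.7% and 6.4% of all detected genes.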
